A study of Mus musculus with 18 samples.

Results

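Guanabenz was compared with phosphate-buffered saline (PBS) in tumours grown in mice that lack Adra2a, the gene for the alpha2A-adrenergic receptor. The 6 libraries of this comparison, 3 titled KO-Guanabenz and 3 titled KO-Control, were taken by their titles from the 18 libraries of the series, and all 16125 genes that passed the filter on low counts were tested. The tumours were MC38-OVA, cells of the mouse colon carcinoma MC38 that carry ovalbumin as a model antigen, implanted into mice of the genotype ADRA2A-/- (KO) or into wild-type (WT) mice. Every mouse received its agent by daily intraperitoneal injection, tumours were taken 7 days after treatment, and the age given is 10 weeks. The treatment entry of all 3 KO-Guanabenz libraries reads Untreated, against their titles. The titles were followed, so every value below compares the libraries titled KO-Guanabenz with those titled KO-Control. For the control libraries that entry also reads Untreated, while the protocol names PBS as the vehicle. The implanted cells do not carry the deletion, so the receptor is missing from host cells alone. Dose, hour of collection, the part of Adra2a that is disrupted and the animal behind each library are not given in the labels, so the p-values cover the spread among the libraries as deposited, and some of it may be technical. WT-Guanabenz and WT-Control, 3 libraries each, from WT hosts of the same age given the same agents, are used where the response is set beside that of mice with the receptor.

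Guanabenz is an agonist of alpha2-adrenergic receptors, which couple to inhibitory G proteins and lower cyclic AMP, and it is used to lower blood pressure. It is also known to act on a phosphatase complex that contains PPP1R15A (GADD34) and removes the stress-induced phosphate from the translation factor eIF2. That phosphate slows general translation while letting ATF4, a transcription factor of amino acid and stress genes, be made. A host without Adra2a still has the related receptors Adra2b and Adra2c, and its tumour cells keep their own receptor genes.

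Levels are given as counts per 1e6 counts (CPM), fold changes on the log2 scale with a standard error (SE), and adjusted p-values come from edgeR's quasi-likelihood test with Benjamini-Hochberg adjustment over all 16125 genes. A gene is said to pass where that fit gives it an adjusted p under 0.05, unless another tool is named. Total counts of the 6 libraries ran from 66.59 to 109.8 in units of 1e6. KO-Guanabenz 1 stood apart from the other libraries of the series on the first principal component, at -55 against -32.1 for the next lowest, and WT-Guanabenz 3 stood apart at the other end, at 41.6 against 20.7 for the next highest. Values without them are given for part of the results, and other WT medians also shift without WT-Guanabenz 3. Y-linked transcripts averaged under 1 CPM in KO-Control 3, KO-Guanabenz 3 and WT-Guanabenz 3 and between 5.01 and 14.2 CPM in the other 9 libraries of both hosts with these agents, so WT-Control held no library low in them. Adra2a (gene 11551) had 7, 18 and 22 counts in KO-Control and 7, 11 and 15 in KO-Guanabenz. That is 0.0917 to 0.231 CPM, below the 0.286 to 0.589 CPM of the 6 WT-Control and WT-Guanabenz libraries, and the log2 change of -0.43 (SE 0.38, adjusted p = 0.652) lay within the spread. Defining markers of colon epithelium were near 0: Krt8, an epithelial keratin, lay between 0.141 and 0.350 CPM in the 6 libraries, the intestinal factor Cdx2 did not pass the filter, and the 13 tested epithelial markers summed to between 6.85 and 11.58 CPM.

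Two-sided tests at adjusted p under 0.05 found 2 genes, or 0.0124% of those tested, and both fell with guanabenz. Ndufa12 (gene 66414, chromosome 10, 94199035 to 94221440, GRCm38.p6) encodes an accessory subunit of respiratory complex I. It was at 81.4, 79.5 and 76.9 CPM in KO-Control and at 55.5, 58.3 and 63.7 CPM in KO-Guanabenz. The groups did not overlap, and the change was -0.42 (SE 0.06, adjusted p = 0.0336 in edgeR), 1.34-fold lower. Hddc2 (gene 69692, chromosome 10, 31313330 to 31328204), an HD-domain protein related to nucleotidases, went from 21.3, 27.4 and 25.4 CPM to 15.1, 14.4 and 15.3 CPM. Every treated library was below every control, with a change of -0.73 (SE 0.11, adjusted p = 0.0336 in edgeR), 1.66-fold lower. Over the alternatives run, the adjusted p of Ndufa12 ranged from 5.23e-07 to 0.265 and that of Hddc2 from 1.07e-06 to 0.265. Neither passed without KO-Control 2, KO-Control 3, KO-Guanabenz 1 or KO-Guanabenz 2, each left out in turn, nor with the replicate number as a block (adjusted p = 0.0569 for both), nor with the KO-Control and KO-Guanabenz libraries fitted alone (adjusted p = 0.215 and 0.17).

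No gene passed in the higher direction. Under other edgeR settings the number of higher calls ran from 0 to 32 (32 without KO-Guanabenz 3, 5 with total-count scaling), while DESeq2 called 168 and limma-voom 130. At an unadjusted p under 0.05 there were 1087 higher genes (6.74%) and 1350 lower genes (8.37%), and 2 of the lower genes passed after adjustment. The 3 treated libraries lay wholly above the 3 controls for 1466 genes (9.09%) and wholly below for 1692 (10.5%). The median change of all genes was -0.01, with 48.7% of genes positive, and the gene groups below are read against these figures.

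The other 8 of the 10 lower genes with the smallest p had adjusted p of 0.0551 to 0.057. Sarnp, a component of the mRNA export complex, was at 76.1, 86.7 and 84.9 CPM in KO-Control and 57.0, 58.5 and 61.7 CPM in KO-Guanabenz (-0.48, SE 0.08, adjusted p = 0.0551 in edgeR). Snrpf, a core protein of the spliceosome, went from 115, 112 and 102 to 80.2, 82.7 and 88.5 CPM (-0.39, SE 0.06). Cd63, a tetraspanin of lysosomes and exosomes, went from 1185, 1407 and 1391 to 919, 880 and 882 CPM (-0.57, SE 0.10). In each of the 3 the groups were apart, with all treated libraries below all controls. Aprt, which salvages adenine, and Lsm7, of the U6 snRNA-binding ring, had changes of -0.38 (SE 0.07) and -0.43 (SE 0.08). Asf1a, a histone chaperone, Csrp2, a LIM domain protein, and Sin3b, a corepressor scaffold, were at -0.45 (SE 0.08), -0.38 (SE 0.07) and -0.30 (SE 0.05).

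The 10 higher genes with the smallest p had adjusted p of 0.0551 to 0.0731. Dnm1, a dynamin that cuts endocytic vesicles from the membrane, was at 61.8, 48.0 and 47.7 CPM in KO-Control and 86.5, 92.1 and 68.0 CPM in KO-Guanabenz (0.65, SE 0.11, adjusted p = 0.0551 in edgeR). Vcl, the focal adhesion protein vinculin, went from 86.1, 74.9 and 67.3 to 113, 119 and 106 CPM (0.57, SE 0.11). Egfr, the epidermal growth factor receptor, went from 35.5, 39.2 and 28.6 to 59.7, 60.04 and 47.3 CPM (0.69, SE 0.13). The groups were apart for all 3, and none of them passed after adjustment. Hspg2, the basement membrane proteoglycan perlecan, and Gpc4, a cell surface glypican, were at 0.40 (SE 0.08) and 0.89 (SE 0.18). Extl3, which starts heparan sulfate chains on such proteoglycans, was at 0.45 (SE 0.09), and Dock5, an activator of Rac, at 0.51 (SE 0.09). Lats2, a kinase of the Hippo pathway, Ipcef1, which binds cytohesins, and Adgra2, an adhesion G protein-coupled receptor, were at 0.30 (SE 0.06), 0.83 (SE 0.17) and 0.40 (SE 0.08).

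These genes were unevenly spread over the chromosomes. Of the 10 lower genes, 8 lie on chromosome 10 (Ndufa12, Hddc2, Sarnp, Snrpf, Cd63, Asf1a, Csrp2 and Lsm7) and Aprt and Sin3b on chromosome 8, while chromosome 10 holds 4.78% of the tested genes and chromosome 8 holds 5.13%. The starts of the 8 run from 31313330 (Hddc2) to 128896231 (Cd63). Of the 10 higher genes, 4 lie on chromosome 14 (Dock5, Extl3, Lats2 and Vcl), which holds 3.42% of the tested genes, and Ipcef1 lies on chromosome 10. Over all 771 tested genes of chromosome 10, 22.3% were lower and 3.5% higher at an unadjusted p under 0.05, and on chromosome 8 the shares were 16.5% and 4.95%. On chromosome 14 they were 3.81% lower and 15.6% higher, and each of these shares is read against the 8.37% and 6.74% of all genes. The lower share of the other chromosomes ran from 3.57% to 10.5%.

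The chromosome differences were small per gene. Relative to the KO-Control mean, the median gene of chromosome 10 was at -0.0018, 0.030 and -0.036 on the log2 scale in KO-Control and -0.096, -0.140 and -0.045 in KO-Guanabenz. Chromosome 8 was at -0.01, 0.02 and -0.02 against -0.06, -0.06 and -0.07, and chromosome 14 at 0.02, 0.01 and -0.03 against 0.06, 0.09 and 0.08. The groups did not overlap on any of the 3 chromosomes, and on chromosome 10 KO-Guanabenz 3 was near KO-Control 3. The median changes in WT hosts were -0.04, -0.02 and 0.03 for chromosomes 10, 8 and 14, against -0.10, -0.07 and 0.06 in KO hosts. Of the genes DESeq2 called, 69 of 284 lower ones lay on chromosome 10 and 26 of 168 higher ones on chromosome 14. With each library's chromosome medians removed, an alternative chosen after the data were seen, no gene passed in edgeR (2411 at an unadjusted p under 0.05). Ndufa12 was then at -0.32 and Hddc2 at -0.63 (adjusted p = 0.0709 for both), so each kept its direction.

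Transcript length moved with these changes. Lengths were taken as the median over a gene's protein-coding transcripts in GENCODE M21 and were found for 98.5% of tested genes. In the shortest 20% of genes (85 to 1116 bases) the median log2 change was -0.07, and it was -0.05, -0.01, 0.02 and 0.08 in the following bins of 20%. Of the shortest genes 18.3% were lower and 3.78% higher at an unadjusted p under 0.05, against 2.42% lower and 13.5% higher of the longest. All 3 treated libraries showed this order, at -0.09, -0.07 and -0.05 in the shortest bin and 0.12, 0.08 and 0.07 in the longest, relative to the KO-Control mean. The medians in WT hosts given guanabenz were similar in size, from -0.06 to 0.09. Both called genes were short, Ndufa12 at 838 bases and Hddc2 at 858, and the 10 lower genes named above ran from 656.5 (Aprt) to 1140.5 (Sin3b). The 10 higher genes ran from 866 (Lats2) and 1185 (Ipcef1) to 14181.5 (Hspg2). With each library's trend on length removed, an alternative chosen after the data were seen, no gene passed in edgeR (1961 at an unadjusted p under 0.05), Ndufa12 was at -0.36 (adjusted p = 0.0841) and Hddc2 at -0.67 (adjusted p = 0.0841).

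**Figure D1:**
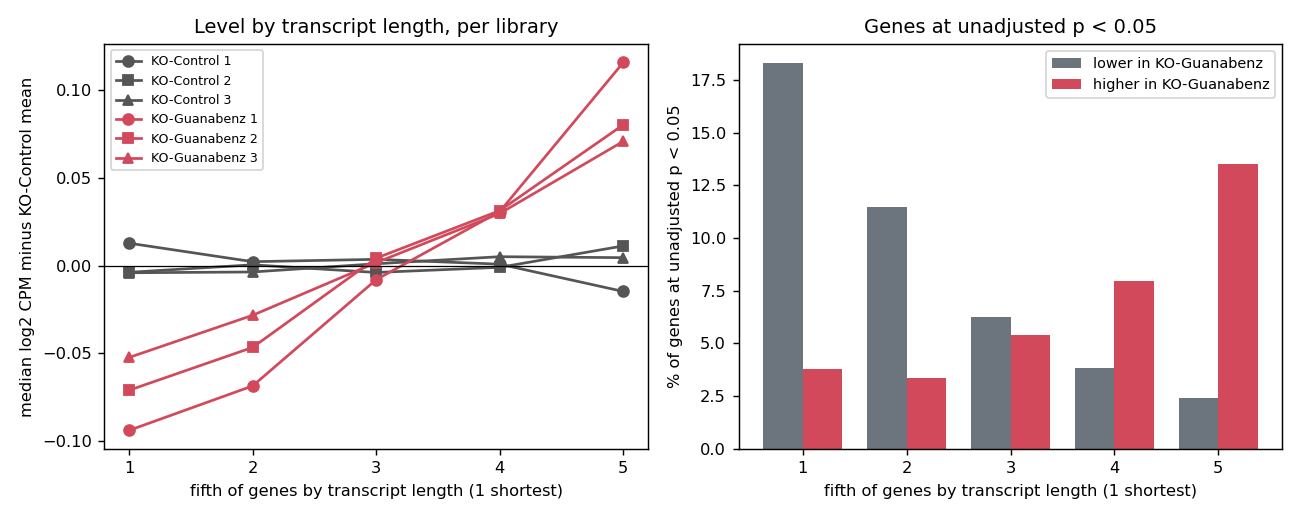
Left, the median log2 CPM of genes relative to the KO-Control mean (vertical axis) by bin of 20% of genes in order of transcript length (horizontal axis, 1 the shortest), 1 line per library with KO-Control in grey and KO-Guanabenz in red. Right, the percentage of genes in each bin at an unadjusted p under 0.05, lower in grey and higher in red; lower genes go from 18.3% to 2.42% and higher genes from 3.78% to 13.5%.

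Short transcripts of translation and respiration showed the same direction as groups. All 25 genes of the cytosolic ribosomal protein list were negative (median -0.22), 22 were lower at an unadjusted p under 0.05 and 21 had groups apart, but none passed after adjustment, while DESeq2 called 10 and limma-voom 7. Rpl13, a protein of the large subunit, was at 1357, 1478 and 1281 CPM in KO-Control and 1125, 1098 and 1192 CPM in KO-Guanabenz (-0.27, SE 0.06). Rps23, at the decoding centre of the small subunit, was at -0.30 (SE 0.07). The median length of these genes is 780 bases, and with the length trend removed their median was -0.16 with 18 at an unadjusted p under 0.05. Of 25 oxidative phosphorylation genes 24 were negative (median -0.15) and 10 were lower at an unadjusted p under 0.05, with 3 called by DESeq2 and 3 by limma-voom. Cox4i1, a subunit of cytochrome oxidase, went from 432, 437 and 432 CPM to 353, 337 and 357 CPM (-0.32, SE 0.06, adjusted p = 0.0658 in edgeR). It lies on chromosome 8, where 16.5% of genes were lower at an unadjusted p under 0.05. Uqcrq, of complex III, was at -0.21 (SE 0.06). In WT hosts given guanabenz the medians of these lists were -0.18 and -0.14, and none of their members had an unadjusted p under 0.05 for the difference between hosts. Reads of ribosomal proteins are shared with near-identical pseudogenes, so their single values are uncertain.

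The 1 gene whose change with guanabenz differed between KO and WT hosts in edgeR was a gene of the circadian clock. The clock is a feedback loop in which ARNTL (BMAL1) and CLOCK bind E box sequences and switch on the period and cryptochrome genes, whose products then repress them. The same pair drives Dbp, Tef and Hlf, factors that bind D box sequences, and the nuclear receptors Nr1d1 and Nr1d2, which repress Arntl. Levels of these transcripts follow the hour of day in most tissues. The labels give no hour of collection, so its part in the values below was not tested. Of the 19 clock genes, all of which were tested, 15 were negative in KO hosts (median -0.16). At an unadjusted p under 0.05 there were 7 lower and 1 higher, and 8 had groups wholly below and 1 wholly above, but none passed after adjustment in edgeR. DESeq2 called 5 lower and 1 higher, among them Per2 (adjusted p = 0.0013), Tef (0.00987), Dbp (0.0173) and Arntl (0.0176), and limma-voom called 3 lower.

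Per2 (gene 18627, chromosome 1, 91415977 to 91459351), a period gene of the repressing arm, was at 8.38, 10.1 and 8.49 CPM in KO-Control and 4.89, 5.73 and 5.09 CPM in KO-Guanabenz. Every treated library was below every control, with a change of -0.78 (SE 0.17, adjusted p = 0.08 in edgeR). In WT hosts it was at 6.38, 4.68 and 3.82 CPM with PBS and 10.2, 11.7 and 10.8 CPM with guanabenz, a change of 1.15 (SE 0.17), with the groups apart as they were for 6.41% of all genes in the higher direction and 8.19% in the lower. The difference between those changes was -1.93 (SE 0.23, adjusted p = 0.00546 in edgeR), and Per2 alone passed that test (1 gene, 0.0062%, with 5.71% of genes at an unadjusted p under 0.05). DESeq2 called 13 genes for this difference, limma-voom 2, edgeR with total-count scaling 2, and edgeR without WT-Guanabenz 1 called 4. It passed under every alternative run, with differences from -2.15 to -1.76 and adjusted p from 6.27e-12 to 0.0369. KO-Guanabenz levels lay within the range of WT-Control, and KO-Control levels lay above it.

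Dbp and Tef, 2 of the outputs of the loop, were also lower with guanabenz in KO hosts and higher in WT hosts. Dbp was at 25.5, 16.1 and 13.1 CPM in KO-Control and 8.34, 10.9 and 9.03 CPM in KO-Guanabenz (-0.95, SE 0.27). In WT hosts Dbp went from 6.72, 7.64 and 5.17 CPM to 9.49, 20.4 and 14.0 CPM, a difference between hosts of -2.13 (SE 0.39, adjusted p = 0.205 in edgeR). KO-Control 1 held the highest Dbp level, and without it the change in KO hosts was -0.63. Tef went from 113, 81.9 and 91.3 to 61.1, 67.9 and 73.8 CPM (-0.50, SE 0.12), with a difference between hosts of -1.09 (SE 0.17, adjusted p = 0.08 in edgeR). Groups of both genes were apart in both hosts, in opposite directions, and KO-Guanabenz levels of Dbp lay above the range of WT-Control. Neither difference passed in edgeR, but both did in DESeq2 (adjusted p = 3.63e-05 for Dbp and 1.27e-05 for Tef). The difference for Tef also passed in limma-voom (adjusted p = 0.00915). That of Dbp also passed in edgeR without WT-Guanabenz 1 (adjusted p = 0.0309) and that of Tef without WT-Guanabenz 3 (0.0254), without KO-Control 2 (0.0332) and with total-count scaling (0.0394).

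Other members of the repressing arm had smaller changes than Per2 in KO hosts. Per3 was at 14.2, 13.3 and 11.4 CPM in KO-Control and 8.88, 10.0 and 10.1 CPM in KO-Guanabenz (-0.42, SE 0.17). Its difference between hosts was -1.28 (adjusted p = 0.205 in edgeR). That difference passed in DESeq2 (adjusted p = 0.000272) and in edgeR without WT-Guanabenz 1 (0.0191). Ciart, a repressor of the ARNTL and CLOCK pair, went from 6.34, 8.53 and 6.84 to 4.19, 5.37 and 4.02 CPM (-0.68, SE 0.20). Cry1, a cryptochrome, went from 20.3, 20.9 and 26 to 15.4, 16.5 and 19.2 CPM (-0.40, SE 0.12). These 3 had groups apart, as did Cry2 (-0.21, SE 0.09) and Nr1d2 (-0.24, SE 0.14). Arntl, of the activating arm, lay in the other direction, at 9.68, 12.4 and 11.3 CPM in KO-Control and 18.2, 16.4 and 16.0 CPM in KO-Guanabenz (0.60, SE 0.16). Its partner Clock was at 0.18 (SE 0.09), while Per1, Nr1d1 and Hlf were at -0.05, -0.05 and -0.04 with overlapping groups. For the difference between hosts, 10 of the 19 genes were lower in KO at an unadjusted p under 0.05 and 1 was higher, against 3.13% and 2.58% of all genes. The median change of the list in WT hosts was 0.30, with 16 of 19 positive. Without WT-Guanabenz 3 it was 0.25, with 14 positive. In that fit 9 genes were lower in KO and 1 higher at an unadjusted p under 0.05 for the difference between hosts. Sh3gl3, an endophilin of synaptic vesicle traffic and no clock gene, was the fifth gene by p for that difference (1.03, SE 0.22, adjusted p = 0.515 in edgeR).

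**Figure D2:**
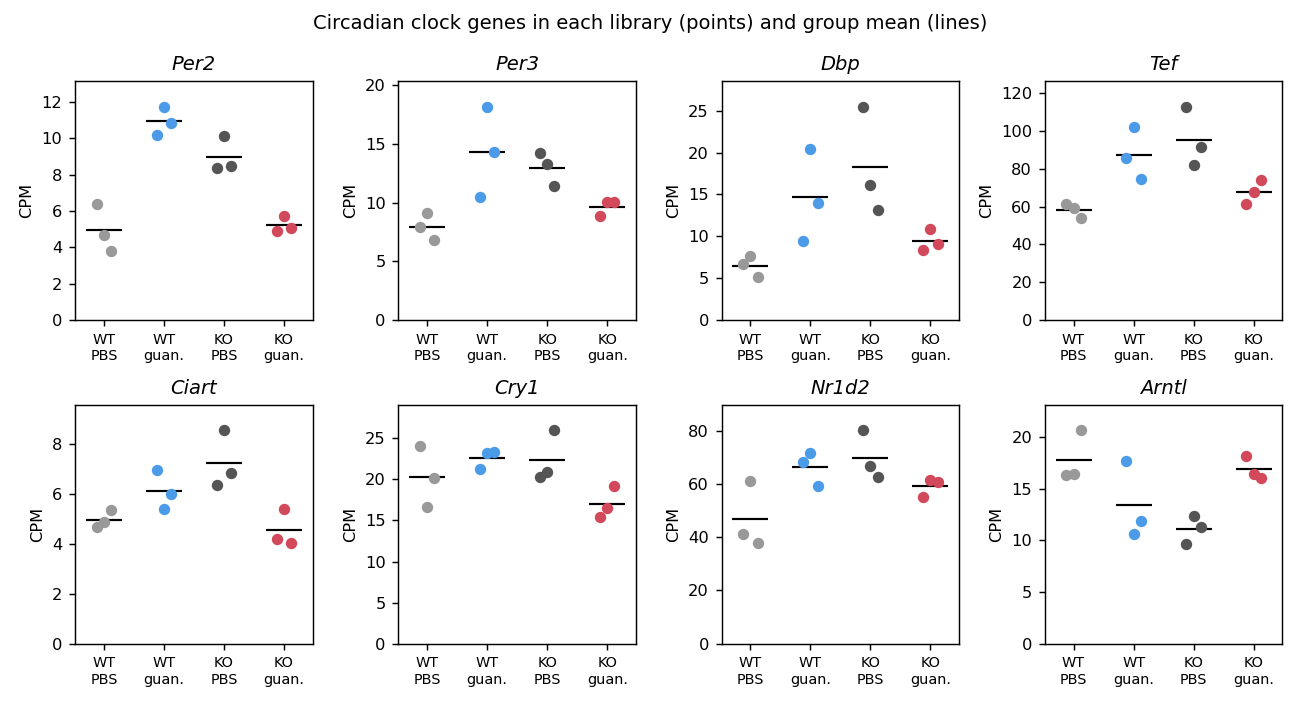
CPM (vertical axes, starting at 0) of 8 clock genes in each of the 12 libraries, by host and agent; points are libraries and lines are means of 3. Per2, Per3, Dbp and Tef are higher with guanabenz than with PBS in WT hosts and lower in KO hosts, while Arntl is higher with guanabenz in KO hosts.

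E boxes are part of how the loop works, so the promoters of these genes were searched for the letters. The E box CACGTG was searched on both strands in the 250 bases before each start site. It lay in 6 of the 21 promoters (28.6%) matched to 16 of the 19 genes, against 6.02% of all 32851 promoters. Those 6 promoters belong to 5 genes, and Per2 had no matched promoter. The D box TTATGTAA, searched likewise, lay in 1 of the 21 clock promoters (4.76%) and in 0.819% of all. A match is a description of letters and not of binding. Tef and Cry1 are shown, from the RefSeq annotation of GRCm38.p6, as clock genes with lower levels in KO-Guanabenz whose window lies outside every transcript of the gene. Capitals mark the E box, whose first base lies 127 bases before the start site in Tef and 60 in Cry1.
Tef promoter, chr15:81802423-81802672, + strand: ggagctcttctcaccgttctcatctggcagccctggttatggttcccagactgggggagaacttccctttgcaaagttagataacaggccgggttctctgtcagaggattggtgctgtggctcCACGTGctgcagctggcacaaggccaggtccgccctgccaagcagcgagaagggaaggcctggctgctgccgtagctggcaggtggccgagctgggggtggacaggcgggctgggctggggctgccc
Cry1 promoter, chr10:85185055-85185304, - strand: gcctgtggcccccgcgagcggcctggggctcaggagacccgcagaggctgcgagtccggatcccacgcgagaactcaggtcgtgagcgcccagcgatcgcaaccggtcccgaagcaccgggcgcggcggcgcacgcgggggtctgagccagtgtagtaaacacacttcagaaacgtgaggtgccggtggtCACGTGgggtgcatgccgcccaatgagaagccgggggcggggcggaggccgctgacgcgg

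Genes for MHC class II, the molecules that show peptides to CD4 T cells, had the highest median of the 41 lists. In bulk tumours, more or fewer cells of a type and more or less RNA per cell cannot be told apart. All 11 tested genes of that list were positive, with a median of 0.57 and 8 at an unadjusted p under 0.05, and 5 had groups apart, but none passed after adjustment. H2-Aa, an alpha chain, was at 321, 245 and 205 CPM in KO-Control and 434, 760 and 339 CPM in KO-Guanabenz (0.99, SE 0.40, adjusted p = 0.255 in edgeR). Cd74, the invariant chain that guides these molecules, went from 783, 574 and 518 to 1098, 1842 and 829 CPM (1.01, SE 0.38). Ciita, the master activator of the class, went from 14.9, 8.28 and 8.66 to 18.0, 26 and 16.4 CPM (0.93, SE 0.38). The groups were apart for all 3, and KO-Guanabenz 2 was the highest library of each. Without KO-Guanabenz 2 the list had a median of 0.35 and no member at an unadjusted p under 0.05. H2-Ab1 and H2-Eb1, both beta chains, were at 0.98 (SE 0.37) and 1.06 (SE 0.41). H2-Ob and H2-DMb1, which tune peptide loading, were both at 0.57 with overlapping groups. Ctss, the protease that trims the invariant chain, was at 0.26 (SE 0.11). In WT hosts the median of the list was 0.17, and none of its members had an unadjusted p under 0.05 for the difference between hosts. Without WT-Guanabenz 3 that median was -0.06 and 2 members had an unadjusted p under 0.05 for the difference, higher in KO. Genes of the H2 family are alike in sequence, so how reads were divided among them is uncertain.

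The Y box CTGATTGG is the letters bound by NF-Y, 1 of the factors that recruit CIITA to these promoters. It lay, on either strand, in 30% of the 10 promoters matched to 9 genes of the class II list and in 3.83% of all promoters. That 30% is 3 promoters, and the same letters lay in 19% of the clock promoters (4 of 21). H2-Aa and H2-Eb1 are printed as the class II genes with the box whose levels are given above, from the same table, with the Y box in capitals, its first base 51 and 62 bases before the start site.
H2-Aa promoter, chr17:34287824-34288073, - strand: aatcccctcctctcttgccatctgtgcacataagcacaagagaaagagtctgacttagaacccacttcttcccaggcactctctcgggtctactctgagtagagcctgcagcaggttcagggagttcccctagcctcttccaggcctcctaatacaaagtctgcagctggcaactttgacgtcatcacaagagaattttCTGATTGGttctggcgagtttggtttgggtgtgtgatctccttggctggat
H2-Eb1 promoter, chr17:34305617-34305866, + strand: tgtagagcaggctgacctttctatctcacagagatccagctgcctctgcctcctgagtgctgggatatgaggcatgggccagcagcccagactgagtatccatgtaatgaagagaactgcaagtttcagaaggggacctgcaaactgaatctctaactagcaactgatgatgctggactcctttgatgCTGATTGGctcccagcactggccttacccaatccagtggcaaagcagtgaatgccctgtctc

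Interferon gamma response genes were positive in 26 of 28 (median 0.19), with 8 at an unadjusted p under 0.05 and 9 with groups apart. Socs1, a feedback inhibitor of cytokine signalling, was at 18.2, 15.9 and 16.3 CPM in KO-Control and 19.0, 21.6 and 21.2 CPM in KO-Guanabenz (0.29, SE 0.09, adjusted p = 0.159 in edgeR). Gbp6 and Iigp1, GTPases of cell-autonomous defence, were both at 0.41 (SE 0.13 and 0.14). The 3 genes had groups apart and none passed after adjustment. Ifng itself was scarce, at 0.638, 0.256 and 0.353 CPM in KO-Control and 0.524, 1.21 and 0.433 CPM in KO-Guanabenz, and Cxcl9, a chemokine it induces, was at 0.42 (SE 0.36), both with overlapping groups. Without KO-Guanabenz 2 the list median was 0.09 and 4 members had an unadjusted p under 0.05. Type I interferon response genes had a median of 0.07 with none at an unadjusted p under 0.05.

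**Figure D3:**
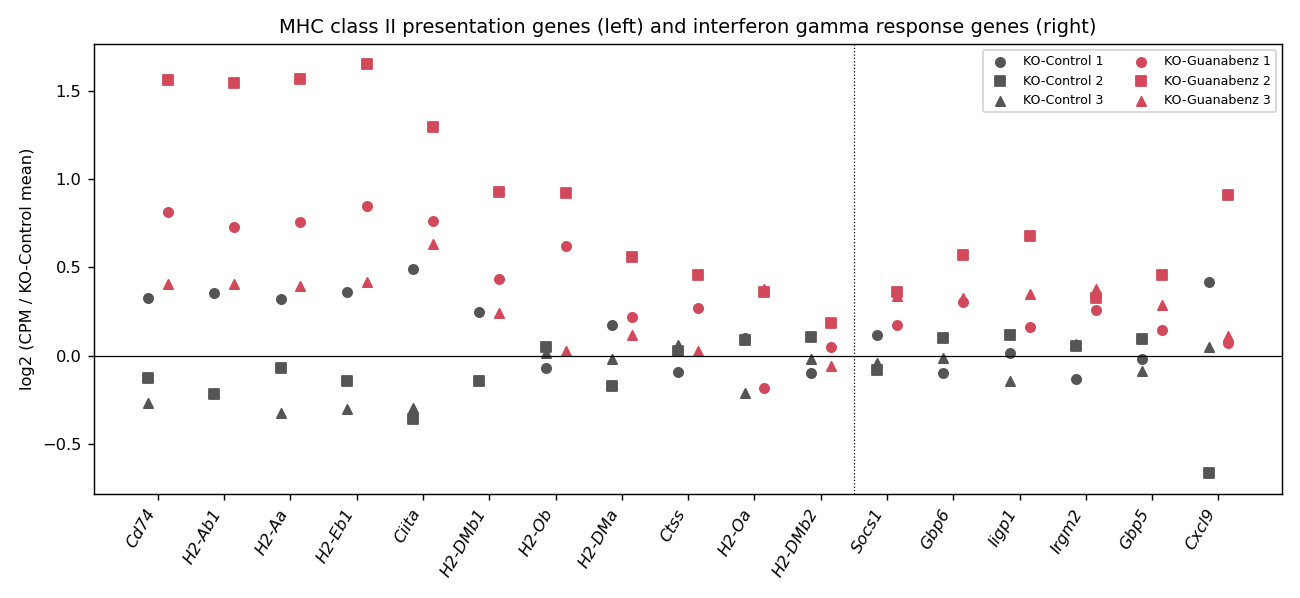
Level of each gene in each KO library as log2 of its CPM over the KO-Control mean (vertical axis), for 11 class II genes left of the dotted line and 6 interferon gamma response genes right of it. KO-Control is grey and KO-Guanabenz red, with circles, squares and triangles for replicates 1, 2 and 3; the red squares of KO-Guanabenz 2 are highest for H2-Aa, Cd74 and Ciita.

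T cell genes were positive in 15 of 20 (median 0.34), with 3 at an unadjusted p under 0.05 and 4 with groups apart. Cd8a, the coreceptor of cytotoxic T cells, was at 8.36, 5.37 and 4.67 CPM in KO-Control and 12.4, 14.0 and 6.99 CPM in KO-Guanabenz (0.86, SE 0.36, adjusted p = 0.279 in edgeR), and its groups overlapped. Cd3e, a chain of the receptor complex, was at 0.45 (SE 0.31), and Il2rb, a receptor chain for interleukins 2 and 15, at 0.67 (SE 0.25). The other 5 of the 20 genes were negative, among them the coreceptor gene Cd4 at -0.12 (SE 0.23), with overlapping groups. Without KO-Guanabenz 2 the list median was 0.18 with no member at an unadjusted p under 0.05. Among checkpoint genes (12 of 16 positive, median 0.18), Pdcd1, the receptor PD-1, was at 3.66, 2.36 and 3.00 CPM in KO-Control and 4.15, 4.72 and 3.93 CPM in KO-Guanabenz (0.51, SE 0.21). Lag3 was at 0.35 (SE 0.16) and Entpd1, which breaks down extracellular ATP, at 0.23 (SE 0.09). The mean level of the checkpoint list was 0.12, 0.30 and 0.04 in KO-Guanabenz 1, 2 and 3, relative to the KO-Control mean. Its median in WT hosts was 0.22 with 14 positive, and 0.09 with 9 positive without WT-Guanabenz 3. Foxp3, the factor of regulatory T cells, was at 2.11, 2.08 and 2.49 CPM against 1.34, 1.14 and 2.34 CPM (-0.47, SE 0.29), with overlapping groups. The regulatory T cell list as a whole had a median of -0.09, with 4 genes positive and 6 negative, and Ikzf2, another factor of these cells, was at 0.25 (SE 0.16). The 15 cytotoxic effector genes had a median of 0.03, with 9 positive and 6 negative, and Gzmb and Prf1, a granule protease and a pore former, were at 0.43 (SE 0.36) and 0.59 (SE 0.29) with overlapping groups. None of these genes passed after adjustment.

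Myeloid lists had medians on both sides of 0. Macrophage and monocyte genes had a median of 0.09 (15 of 18 positive), with 1 at an unadjusted p under 0.05. Adgre1, the macrophage marker F4/80, was at 240, 159 and 231 CPM in KO-Control and 272, 244 and 273 CPM in KO-Guanabenz (0.32, SE 0.14). Dendritic cell genes had a median of -0.05. Neutrophil genes had a median of -0.38 but no group wholly apart, and the median was 0.02 without KO-Control 2. Alternatively activated macrophage genes had a median of -0.44, with 11 of 13 negative. Arg1, the arginase of such cells, was at 33.4, 106 and 72.3 CPM against 38.3, 47.6 and 41.1 CPM (-0.74, SE 0.45), with overlapping groups. That list's mean level was -0.77 and -0.91 in KO-Guanabenz 1 and 2 and 0.21 in KO-Guanabenz 3, relative to the KO-Control mean.

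Fibroblast and matrix genes were positive in 20 of 25 (median 0.20), with 7 at an unadjusted p under 0.05 and 5 with groups apart. Col3a1, the chain of type III collagen, was at 8207, 6545 and 5810 CPM in KO-Control and 10479, 10062 and 8821 CPM in KO-Guanabenz (0.51, SE 0.14, adjusted p = 0.138 in edgeR). Pdgfra, a growth factor receptor of fibroblasts, went from 238, 209 and 176 to 345, 317 and 244 CPM (0.54, SE 0.18). Sparc, a matrix glycoprotein, was at 0.29 (SE 0.11) and Col1a1, of type I collagen, at 0.42 (SE 0.17). All 4 had groups apart. In WT hosts the list median was -0.07, and 7 of the 25 genes were higher in KO than in WT at an unadjusted p under 0.05 for the difference, Col1a1 at 0.78 (SE 0.24, adjusted p = 0.836 in edgeR) among them. Without WT-Guanabenz 3 that median was -0.16 and 6 genes were higher in KO. The list median was 0.35 without KO-Control 1, and 0.10 with 4 genes at an unadjusted p under 0.05 once the length trend was removed. Endothelial genes had a median of 0.05 and pericyte and smooth muscle genes of 0.06.

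Markers of skeletal muscle, fat, epidermis and mast cells had their lowest levels in KO-Guanabenz 1. None of the 20 skeletal muscle genes was above 0 (median -0.88), with 12 lower at an unadjusted p under 0.05 and 11 with groups apart. Tnni2, the inhibitory troponin of fast fibres, was at 10.8, 12.9 and 13.4 CPM in KO-Control and 5.33, 7.26 and 7.64 CPM in KO-Guanabenz (-0.87, SE 0.25, adjusted p = 0.145 in edgeR). Acta1, skeletal actin, went from 46.8, 64.3 and 69.0 to 14.8, 32.8 and 41.5 CPM (-1.02, SE 0.38), and Eno3, the muscle enolase, from 17.0, 19.8 and 17.6 to 12.7, 13.4 and 13.6 CPM (-0.46, SE 0.14). The 3 genes had groups apart, with KO-Guanabenz 1 lowest in each. The 20 genes summed to between 271.2 and 373.3 CPM in KO-Control and between 96.65 and 244.5 CPM in KO-Guanabenz, and without KO-Guanabenz 1 their median was -0.58 with 2 at an unadjusted p under 0.05. In WT hosts the median was -0.32.

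Mast cell and eosinophil genes had a median of -0.65, adipocyte genes of -0.58 and epidermal genes of -0.33, with 1 gene lower at an unadjusted p under 0.05 in each and 1 epidermal gene higher. Mcpt4, a mast cell protease, was at 4.13, 2.46 and 3.80 CPM in KO-Control and 0.393, 0.935 and 3.11 CPM in KO-Guanabenz (-1.22, SE 0.59). Cma1 and Cpa3, also mast cell proteases, were at -1.07 (SE 0.55) and -1.01 (SE 0.60). KO-Guanabenz 3 overlapped the controls for all 3. Mean levels of the mast cell, adipocyte and epidermal lists in KO-Guanabenz 1 were -1.65, -1.87 and -2.70 relative to the KO-Control mean, and without that library the list medians were -0.36, -0.28 and 0.17. The part of these tissue markers in the other differences was not tested.

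**Figure D4:**
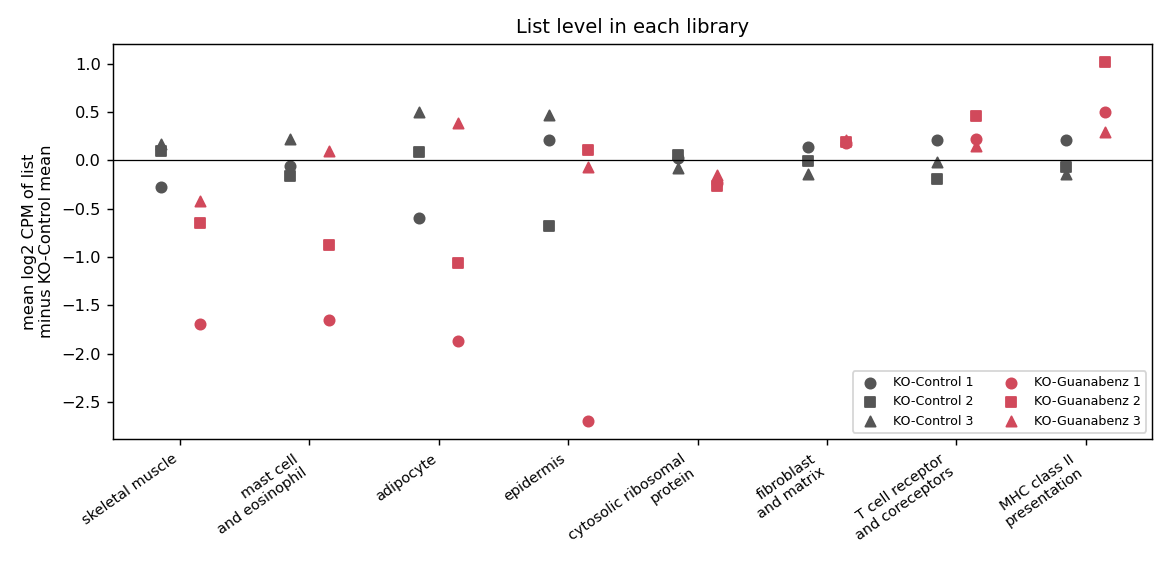
Mean log2 CPM of 8 gene lists in each KO library relative to the KO-Control mean (vertical axis), KO-Control grey and KO-Guanabenz red, with circles, squares and triangles for replicates 1, 2 and 3. KO-Guanabenz 1 (red circle) is lowest for skeletal muscle, mast cell, adipocyte and epidermis, and the ribosomal protein levels of the 3 treated libraries lie together below the controls.

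The eIF2 and ATF4 lists, tied to the phosphatase complex on which guanabenz acts, had medians close to that of all genes. The 17 eIF2 kinases and phosphatase subunits had a median of -0.01. Ppp1r15a, the inducible phosphatase subunit, was at 28, 39.5 and 22.2 CPM in KO-Control and 30.1, 30.8 and 22 CPM in KO-Guanabenz, with overlapping groups and no stable sign (-0.11, SE 0.19, 0.14 without KO-Control 2). Ppp1r15b, the constitutive subunit, was at 0.04 (SE 0.07, -0.056 with the length trend removed). Eif2s2, the beta subunit of eIF2, went from 328, 414 and 373 to 277, 309 and 310 CPM (-0.32, SE 0.10), with groups apart and an adjusted p of 0.185 in edgeR. The 32 genes of the ATF4 integrated stress response had a median of -0.01, with 15 positive and 17 negative and 3 lower at an unadjusted p under 0.05. Atf4 was at 239, 266 and 246 CPM against 230, 250 and 244 CPM (-0.05, SE 0.08, 0.0063 with the length trend removed). Its targets Ddit3, a stress factor also called CHOP, and Asns, which makes asparagine, were at -0.18 (SE 0.10) and -0.13 (SE 0.11). Trib3 and Chac1 were at -0.16 (SE 0.18) and -0.01 (SE 0.18), and both were positive without KO-Control 2. Phgdh, the first enzyme of serine synthesis, went from 2243, 2221 and 2763 to 1907, 1890 and 1750 CPM (-0.38, SE 0.13), and Ddit4, an inhibitor of mTORC1, from 148, 216 and 161 to 131, 144 and 135 CPM (-0.36, SE 0.14). Both had groups apart and neither passed after adjustment. Ddit3 and Ddit4 lie on chromosome 10, where 22.3% of genes were lower at an unadjusted p under 0.05.

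Endoplasmic reticulum chaperone genes had a median of 0.11, with 3 of 22 higher and 1 lower at an unadjusted p under 0.05. The list's mean level was 0.01, 0.03 and 0.20 in KO-Guanabenz 1, 2 and 3, relative to the KO-Control mean. Dnajc3, a co-chaperone that inhibits eIF2 kinases, was at 94.0, 79.4 and 80.0 CPM in KO-Control and 95.5, 104 and 119 CPM in KO-Guanabenz (0.33, SE 0.08, adjusted p = 0.0937 in edgeR). Atf6, a sensor of unfolded protein, was at 0.17 (SE 0.07), and both genes had groups apart. In WT hosts Dnajc3 and Atf6 were at 0.16 and 0.22, also with groups apart. Their transcript lengths are 5141 and 7246 bases, and Dnajc3 lies on chromosome 14. Adrenergic receptor and signalling genes had a median of 0.01 over 16 tested genes, and Adra2c was too low to test. Nisch, proposed as an imidazoline binding protein, was at 0.10 (SE 0.06). Arrb1, a beta-arrestin, was at 43.1, 42.1 and 43.4 CPM in KO-Control and 52.3, 47.0 and 49.0 CPM in KO-Guanabenz (0.21, SE 0.08), and Maoa, which breaks down noradrenaline, was at -0.17 (SE 0.08). Among 28 G protein and cyclic AMP genes 22 were positive (median 0.11), with 4 at an unadjusted p under 0.05 and 8 with groups apart. Adcy7, an adenylyl cyclase of blood cells, went from 158, 157 and 152 to 196, 204 and 176 CPM (0.30, SE 0.09), and Gnao1, an inhibitory alpha subunit, was at 0.84 (SE 0.31) from a low level.

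Besides oxidative phosphorylation, proliferation and metabolism lists had medians from -0.10 to -0.02. S phase and G2 and M phase genes had medians of -0.04 and -0.06, and Mki67, the proliferation marker, was at 305, 304 and 301 CPM against 304, 282 and 320 CPM (-0.01, SE 0.08). In WT hosts those medians were 0.09 and 0.08, and 6 of the 24 G2 and M phase genes were lower in KO at an unadjusted p under 0.05 for the difference. Hypoxia and glycolysis genes had a median of -0.10, with 20 of 26 negative, and Ldha, which makes lactate, was at -0.13 (SE 0.13). Cholesterol and fatty acid synthesis genes had a median of -0.02. Immediate early genes had a median of 0.10 with 3 of 20 higher at an unadjusted p under 0.05. Fosb, an AP-1 subunit, went from 1.90, 2.40 and 2.02 to 3.89, 4.23 and 3.52 CPM (0.88, SE 0.26), and Egr3, a zinc finger factor, from 3.53, 1.54 and 2.18 to 3.86, 4.31 and 6.48 CPM (1.02, SE 0.36). Both had groups apart at low levels and did not pass after adjustment.

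**Figure D5:**
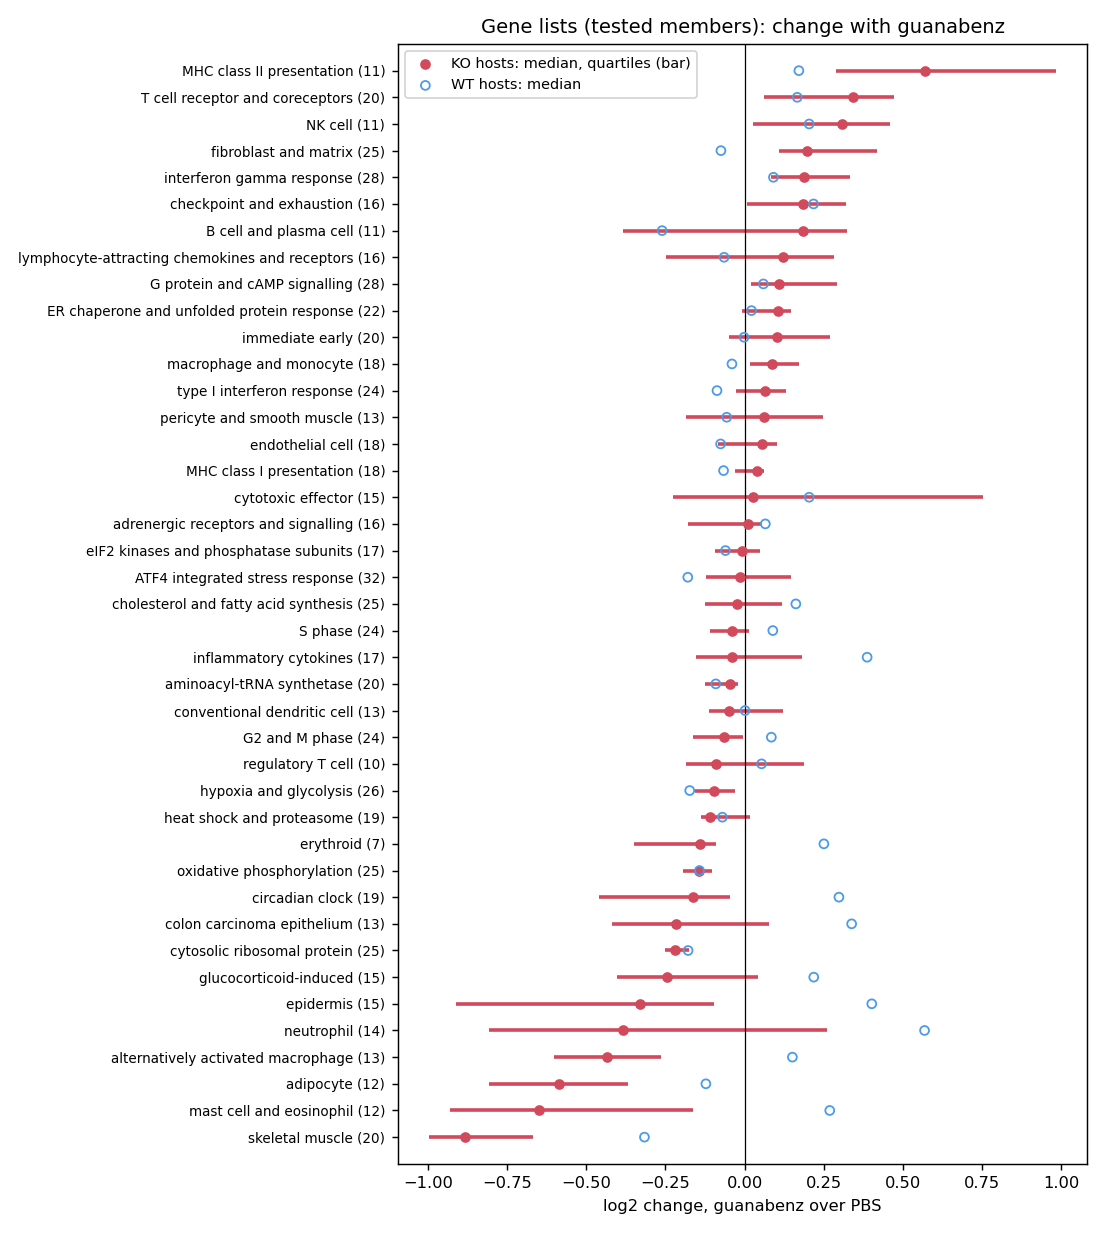
Log2 change with guanabenz over PBS (horizontal axis) for 41 gene lists, with the number of tested members in brackets; filled red points are medians in KO hosts with quartiles as bars, and open blue circles are medians in WT hosts. MHC class II genes have the highest median in KO hosts (0.57) and skeletal muscle genes the lowest (-0.88), and the clock list lies on opposite sides of 0 in the 2 hosts.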

How the data were processed

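The authors deposited whole-number estimated counts per gene, per the submitters' processing notes the product of Trim Galore 0.6.5 and kallisto 0.46.0 with GRCm38 as reference; strandedness and the summing of transcripts to genes are not given in the sources used here. kallisto divides shared reads, so values of near-identical families and overlapping genes are uncertain. RefSeq GRCm38.p6 named 20994 of 21015 identifiers. All 18 libraries (54.68 to 491.1 in units of 1e6 counts), grouped by title, were scaled by TMM, filtered with filterByExpr and fitted in edgeR 4.0.16 under R 4.3.3. The fit held 1 mean for each of 6 groups. It was also run on simulated counts without a length trend, chromosome shift or outlying library. That run does not bear on how the calls depend on those features. The biological coefficient of variation was 0.145. SEs are the log2 change over the square root of F.

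The 41 gene lists and 32 key genes were chosen with earlier results of these data known. Of 775 list entries, 28 could not be tested. Named were key genes, called genes, the 10 higher and 10 lower genes with the smallest p, the 3 members of each list with the smallest p and the 5 genes with the smallest p for the difference between hosts. Acta1, Cd8b1, Ciart, Ciita, Col1a1, Cpa3, Cry1, Cry2, Ctss, H2-Aa, H2-DMb1, H2-Eb1, Iigp1, Nr1d2, Per1, Nr1d1, Hlf and Clock were added after their values were seen. Alternatives were RLE and total-count scaling, DESeq2 1.42.0, voom with sample quality weights (limma 3.58.1), other filters, the compared groups alone, a replicate block, a term for Y-linked transcripts, removal of the length trend or of chromosome medians (both added after the data were seen) and omission of each library. Some genes that the naming rule picks are not reported here.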

Additional observations from a re-analysis of the deposited data

Results flagged for a closer look

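The change of Per2 with guanabenz differed between the 2 hosts by a test of the difference itself. The change with guanabenz in KO hosts minus that in WT hosts was -1.93 on the log2 scale (SE 0.23, adjusted p = 0.00546 in edgeR), with groups apart in both hosts and in opposite directions. The treatment entry of the KO-Guanabenz libraries reads Untreated, and the labels give no hour of collection.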

How the results depend on the processing

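The comparison in KO hosts gave 2 calls, and the count depended on the method: 15 with total-count scaling, 19 with the filter of 1 CPM in 3 libraries, 11 with a term for Y-linked transcripts, 343 with voom and 452 with DESeq2 (284 lower), all of which included both genes. It was 0 with the compared groups fitted alone (2260 at an unadjusted p under 0.05), with the replicate block (2377, smallest adjusted p = 0.0569) with the length trend removed (1961) and with chromosome medians removed (2411). Omitting 1 library gave 0 to 85, with 0 without KO-Control 2, KO-Control 3, KO-Guanabenz 1 or KO-Guanabenz 2, 11 without KO-Control 1 and 85 without KO-Guanabenz 3. Deviations of same-numbered libraries correlated at 0.0104, -0.0784 and 0.253, and those of differently numbered libraries at -0.31 to 0.266. Nothing in the labels says that numbers pair the libraries.

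The difference between hosts gave 1 call, 2 with total-count scaling, 2 with voom, 13 with DESeq2 and 1 with the replicate block; omitting 1 library gave 1 to 4. Single genes near 0 changed sign: Ppp1r15a (0.068 with voom), Chac1 (0.071 with voom, 0.019 with the length trend removed, 0.0078 with chromosome medians removed), Mki67 (0.0024 with no filter), Ppp1r15b (-0.056) and Atf4 (0.0063) with the length trend removed. Omitting 1 library gave -0.29 to 0.14 for Ppp1r15a, -0.0062 to 0.087 for Ppp1r15b, -0.28 to 0.043 for Trib3, -0.16 to 0.22 for Chac1, -0.21 to 0.027 for Ldha and -0.050 to 0.037 for Mki67. The cause of these shifts was not tested.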
